A study of Mus musculus with 4 samples.

Results

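The 10 endothelial leukocyte adhesion molecules described here are *Icam1*, *Icam2*, *Vcam1*, *Sele*, *Selp*, *Pecam1*, *Cd34*, *Mcam*, *Alcam* and *Vwf*. They were chosen by gene symbol and are 10 of the 18373 genes with deposited values. All 10 passed the filter on low counts and are among the 13628 genes tested. Gene expression was measured by RNA-seq in 4 libraries of primary mouse liver sinusoidal endothelial cells (LSECs), the fenestrated endothelium that lines the liver sinusoids. NC (negative control siRNA) and si*Airn* (siRNA against the long non-coding RNA *Airn*) had 2 libraries each, and the comparison addresses which of these genes change when *Airn* is targeted.

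The LSECs of both groups came from livers of Balb/c mice 8 weeks old. They were separated on a Nycodenz density gradient, selected with magnetic beads against CD146, cultured for 24 h on collagen and transfected with siRNA for 48 h. CD146 is the protein made by *Mcam*, so the product of 1 of the 10 genes was used to select the cells of both groups. The labels of both si*Airn* libraries name si*Airn*1, whereas the design text speaks of 2 si*Airn*, so the siRNA given to each library remains unclear. The sex of the mice and the number of animals per library are not given in the sources used here, and the labels call the libraries of a group biological replicates without saying what was separate, so p-values measure the spread between these libraries.

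Library totals ran from 17308382 to 18371959 estimated counts. *Airn* itself had 7 and 3 counts in the NC libraries and 11 and 9 in the si*Airn* libraries, a ratio of 1.97 with a 95% interval from 0.88 to 4.71 that covers counting error only, and leaving out NC replicate 1 gave a ratio of 3.37, leaving out NC replicate 2 one of 1.37. These counts show no decrease of the targeted RNA, and every direction below follows the labels, with si*Airn* standing for the libraries labelled so. Markers of LSECs, such as *Fcgr2b* and *Oit3*, were detected in all 4 libraries, and so were markers of macrophages, stellate cells and hepatocytes.

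Leukocytes leave the blood by a series of steps. Selectins on the endothelium slow them by binding carbohydrate ligands, integrins on the leukocyte then hold on to immunoglobulin-family molecules such as ICAM-1 and VCAM-1, and junctional molecules such as PECAM-1 take part in the passage across the vessel wall. In liver sinusoids flow is slow and leukocytes can arrest with little help from selectins, and the resting sinusoidal endothelium is known for low E-selectin, P-selectin and von Willebrand factor. Several of the 10 genes are also transcribed outside the endothelium, *Selp*, *Vwf* and *Pecam1* in platelets or their precursors, *Pecam1* and *Icam1* in leukocytes, and *Vcam1*, *Icam1* and *Mcam* in stellate or mural cells. In bulk samples fewer cells of a type and less RNA per cell cannot be told apart.

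The selectin genes are shown by sequence because they lie on the same chromosome and differed in level. *Sele* and *Selp* lie on the plus strand of mouse chromosome 1 with starts 67030 bases apart (GENCODE M21, GRCm38). Promoters (250 bases before to 50 after the start) of 6 of the 10 genes were matched in RefSeq (GRCm38.p6), those of *Sele*, *Selp*, *Cd34*, *Icam1*, *Mcam* and *Alcam*. The windows below, each of 30 bases, are chr1:164048161-164048190 upstream of *Sele* and chr1:164115113-164115142 upstream of *Selp*, both on the plus strand and 5′ to 3′, and capitals mark the letters matched by a motif.
Sele: TGACTCAcaggaagccagctccccTATAAA
Selp: gatgtccaggcaTGATTCAcacctgcgcct
Both windows hold the AP-1 letters TGANTCA, which read the same on either strand, 73 to 67 bases upstream of the start in *Sele* and 139 to 133 bases upstream in *Selp*. The *Sele* window also holds the TATA letters TATAAA, 49 to 44 bases upstream. Of 32851 promoters of this length, 7.81% hold TGANTCA and 13.6% hold TATAAA on either strand. Outside the 2 windows, TATAAA was also in the *Icam1* promoter, 13 to 18 bases after the RefSeq start. The GENCODE start of *Icam1*, at 21015985, lies downstream of these letters, so they are upstream of the start by that annotation. The ETS letters AGGAAGT were in that of *Selp* (9.35% of all promoters) and the KLF letters CCNCACCC in that of *Cd34* (16.6%). The GATA letters AGATAAG were in none of the 6 (3.04%). An NF-κB consensus that begins with GGG, searched on both strands, was found in none of the 6 promoters and in 4.51% of all promoters. This says only that a match to that consensus is not in these windows, and looser forms of the site were not searched.

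In NC libraries the 10 genes spanned a wide range of FPKM, a level scaled to transcript length and library size, in which genes can be compared. *Pecam1* was the highest in every library, above 98.4% of the genes tested in either group. It was followed in NC by *Icam2*, *Icam1* and *Mcam*, whose values did not overlap with one another, and then by *Vcam1* and *Selp*, whose values did overlap. *Cd34*, *Sele*, *Alcam* and *Vwf* came last in that order, each apart from the next. In si*Airn* the order among the highest was *Pecam1*, *Icam1*, *Icam2*, *Mcam* and *Vcam1*, with *Icam2* overlapping *Mcam* and *Mcam* overlapping *Vcam1*, and *Selp* now stood below all of these.

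**Figure D1:**
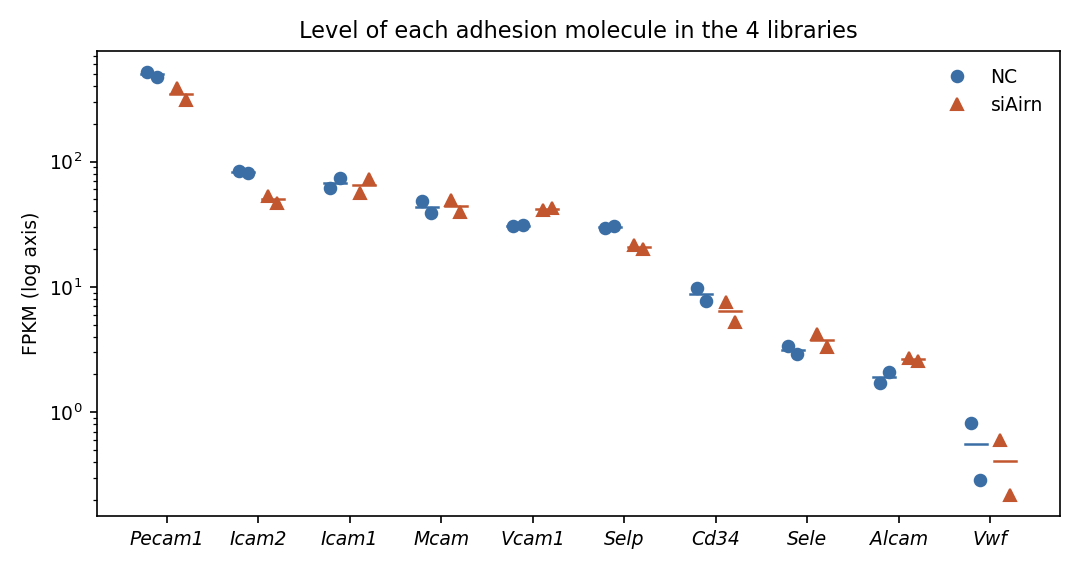
FPKM (log axis) of the 10 adhesion molecules in each of the 2 NC (circles) and 2 siAirn (triangles) libraries, with a bar at each group's mean. Icam2, Selp and Pecam1 lie lower and Vcam1 higher in both siAirn libraries than in both NC libraries, while Icam1, Mcam, Sele and Vwf overlap between groups.

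Of the 10 genes, 4 differed between si*Airn* and NC at a Benjamini-Hochberg adjusted p under 0.05 in edgeR's quasi-likelihood test, against 16.8% of all genes tested. *Icam2*, *Selp* and *Pecam1* fell, against 8.56% of all genes called lower, and *Vcam1* rose, against 8.27% called higher. By the threshold the study used, a fold change over 1.4 with an unadjusted p under 0.05, *Icam2*, *Selp*, *Pecam1* and *Cd34* passed, 4 of 10 against 9.96% of all genes, and *Vcam1* did not because its change was smaller. The groups did not overlap in 6 of the 10 genes, which is close to the 62.7% of all genes tested. The median log2 fold change was -0.28 over the 10 genes and 0.00 over all genes tested, and over 10 chosen genes this is a description only.

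**Figure D2:**
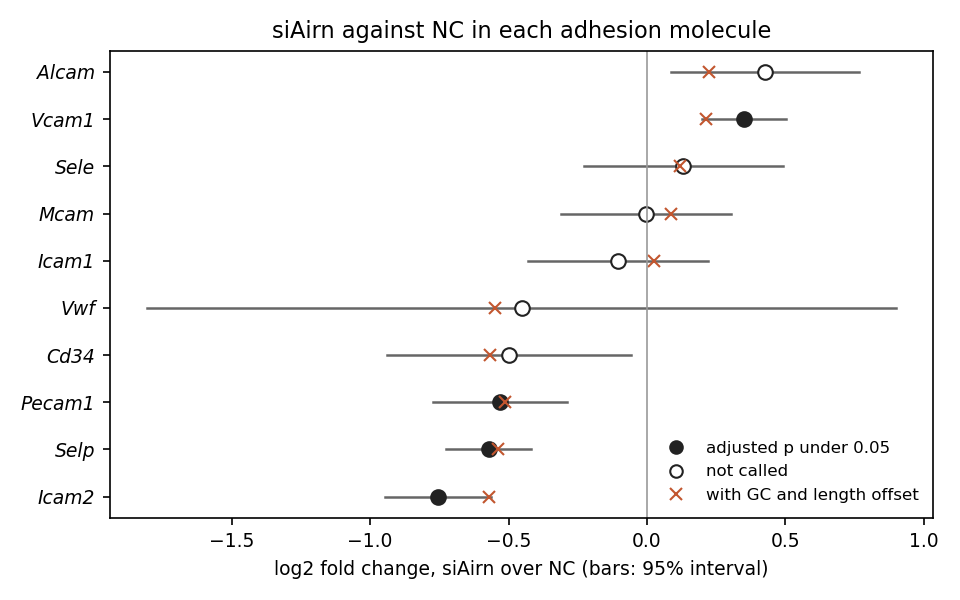
Log2 fold change of si*Airn* over NC for the 10 genes, with 95% intervals (lines), filled points where the adjusted p was under 0.05 in edgeR's quasi-likelihood test, and crosses for the value with an offset for GC content and transcript length. The intervals of Icam2, Selp, Pecam1 and Cd34 lie below 0 and those of Vcam1 and Alcam above it, and with the offset Vcam1 moves from 0.35 to 0.21.

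Among the docking molecules that leukocyte integrins bind, the 3 genes moved in different ways. *Icam2* (chromosome 11, 106377656 to 106388075, minus strand, GRCm38) encodes ICAM-2, a ligand of the integrin LFA-1 that endothelium carries without stimulation. Its FPKM was 83.9 and 80.5 in NC and 53.6 and 46.6 in si*Airn*. Both si*Airn* libraries were well below both NC libraries, with means of 82.2 ± 2.35 and 50.1 ± 4.89 (SD, n = 2 each). This was the largest called change among the 10 genes, with a log2 fold change of -0.76 (SE 0.08, 1.69-fold lower, adjusted p = 0.00533 by edgeR's quasi-likelihood test). With an offset for transcript length alone, the called change of *Selp* was slightly larger, at -0.61 against -0.60 for *Icam2*.

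*Icam1* (chromosome 9, 21015985 to 21028817, plus strand) encodes ICAM-1, a ligand of LFA-1 and Mac-1 that inflammatory cytokines induce. Its FPKM was 62.1 and 73.3 in NC and 56.4 and 73.1 in si*Airn*. The groups overlapped, and in both the library numbered 2 was the higher. The log2 fold change was -0.10 with a 95% interval from -0.43 to 0.22 (adjusted p = 0.631, edgeR's quasi-likelihood test), and its sign turned to 0.03 with the offset for GC content and length. Exons of *Gm47079* on the opposite strand cover 11.7% of the exonic bases of *Icam1*. Since the use of strand in counting is not given in the sources used here, such reads cannot be told apart.

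*Vcam1* (chromosome 3, 116109949 to 116129688, minus strand) encodes VCAM-1, the ligand of the integrin VLA-4 on lymphocytes and monocytes. Its FPKM was 30.5 and 31.0 in NC and 40.7 and 42.9 in si*Airn*. The si*Airn* libraries were both higher and the spread within each group was small. *Vcam1* rose with a log2 fold change of 0.35 (SE 0.06, 1.27-fold, adjusted p = 0.0165, edgeR's quasi-likelihood test). The call was lost with the offset for GC content and transcript length (0.21, adjusted p = 0.0817 by the same test). Stellate and mural cell markers, which stand for cells that can also transcribe *Vcam1*, were higher in 14 of 15 genes, 4 of them past the adjusted threshold, against 8.27% of all genes. That count was 12 without si*Airn* replicate 1, 2 without si*Airn* replicate 2 and 0 without either NC library. Their summed FPKM was 878 and 1082 in NC and 1046 and 1327 in si*Airn*, overlapping between groups. Their part in the *Vcam1* result was not tested.

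The balance among the integrin ligands, read within each library, did not overlap between groups. The ratio of *Vcam1* to *Icam2* FPKM was 0.364 and 0.385 in NC and 0.760 and 0.920 in si*Airn*. *Icam1* was at 0.740 and 0.911 of *Icam2* in NC and at 1.05 and 1.57 of it in si*Airn*, so that *Icam1* stood above *Icam2* only in the si*Airn* libraries of these 4. These ratios restate the same FPKM values and carry no test of their own.

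The 2 selectin genes were far apart in level. *Selp* (chromosome 1, 164115264 to 164150026) encodes P-selectin, which is stored in Weibel-Palade bodies, the secretory granules of endothelium, and in platelet granules. Its FPKM was 29.6 and 30.6 in NC and 21.4 and 20.2 in si*Airn*. Values within each group were close, and both si*Airn* libraries were lower. *Selp* fell with a log2 fold change of -0.57 (SE 0.06, 1.49-fold lower, adjusted p = 0.00614, edgeR's quasi-likelihood test). Exons of *Gm16548* and *Gm16587* on the opposite strand cover 14.1% of its exonic bases, with the same limit as for *Icam1*.

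*Sele* (chromosome 1, 164048234 to 164057677) encodes E-selectin, which endothelium makes on cytokine stimulation. Its FPKM was 3.40 and 2.92 in NC and 4.22 and 3.29 in si*Airn*. The groups overlapped, and the log2 fold change was 0.13 with a 95% interval from -0.23 to 0.49 (adjusted p = 0.583, edgeR's quasi-likelihood test). *Sele* was at 0.115 and 0.0956 of the *Selp* FPKM in NC and at 0.197 and 0.163 in si*Airn*. Of 5 platelet and megakaryocyte markers tested, none passed the adjusted threshold in edgeR's test, against 16.8% of all genes called in either direction. Their summed FPKM, mostly from *Pf4*, overlapped between groups at 25.2 and 36.6 in NC and 31.6 and 37.4 in si*Airn*.

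**Figure D3:**
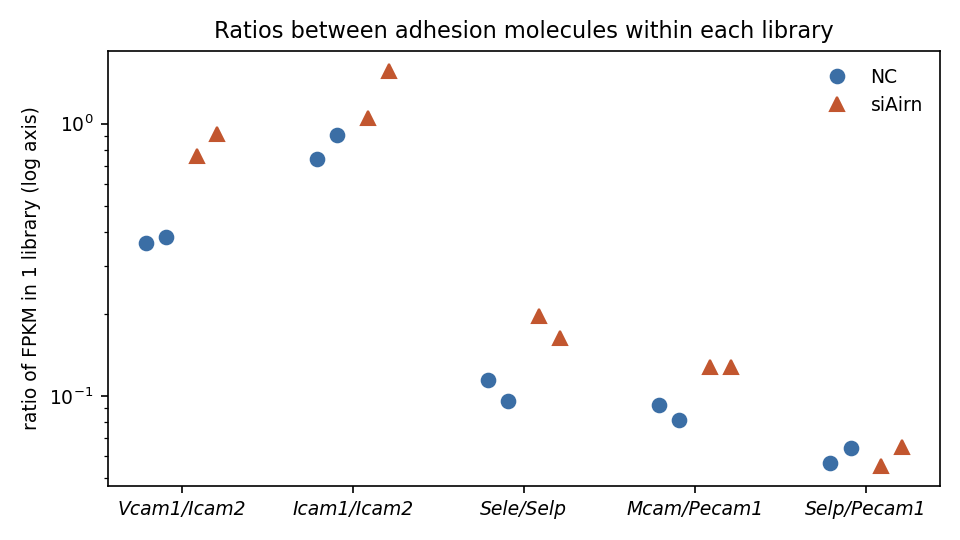
Ratio of the FPKM of a pair of adhesion molecules within 1 library (log axis), for the 2 NC (circles) and 2 siAirn (triangles) libraries. Vcam1/Icam2, Icam1/Icam2, Sele/Selp and Mcam/Pecam1 are higher in both siAirn libraries, whereas Selp/Pecam1 overlaps between groups, from 0.0554 to 0.0648 over the 4 libraries.

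Among the molecules of junctions and transmigration, *Pecam1* (chromosome 11, 106654217 to 106750628, minus strand) encodes PECAM-1, which binds itself across cell borders and on passing leukocytes. Its FPKM was 520 and 474 in NC and 386 and 312 in si*Airn*. Both si*Airn* libraries were lower, although they differed more from each other than the NC libraries did. *Pecam1* fell with a log2 fold change of -0.53 (SE 0.10, 1.44-fold lower, adjusted p = 0.019, edgeR's quasi-likelihood test).

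*Mcam* (chromosome 9, 44134469 to 44142727, plus strand) encodes CD146, the antigen of the bead selection. Its FPKM was 48.4 and 38.7 in NC and 49.4 and 39.8 in si*Airn*. The libraries numbered 1 were the higher in both groups and the groups overlapped. The log2 fold change was -0.0025 with a 95% interval from -0.31 to 0.30 (adjusted p = 0.991, edgeR's quasi-likelihood test), and its sign turned under other scalings. Relative to *Pecam1*, *Mcam* was at 0.0930 and 0.0816 in NC and at 0.128 in both si*Airn* libraries.

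*Alcam* (chromosome 16, 52248996 to 52454074, minus strand) encodes ALCAM, a ligand of CD6 on T cells. Its FPKM was low, at 1.72 and 2.10 in NC and 2.72 and 2.55 in si*Airn*. Both si*Airn* libraries were higher, with a log2 fold change of 0.43 (SE 0.14) that did not pass the adjusted threshold (adjusted p = 0.0848, edgeR's quasi-likelihood test). It also missed the study's threshold, since its fold change was 1.34.

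*Cd34* (chromosome 1, 194938819 to 194961279, plus strand) encodes a sialomucin that can carry selectin ligands and is more typical of continuous capillaries than of sinusoids. Its FPKM was 9.86 and 7.74 in NC and 7.62 and 5.26 in si*Airn*. The groups did not overlap, but the higher si*Airn* value was just under the lower NC value. The log2 fold change was -0.50 (SE 0.19, adjusted p = 0.11, edgeR's quasi-likelihood test), which passed the study's threshold by a narrow margin, with a 1.41-fold decrease, and missed the adjusted one. With limma on FPKM or the offset for transcript length its fold change was under 1.4 (log2 fold changes from -0.47 to -0.41), and 3 of the 10 genes then passed the study's threshold.

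*Vwf* (chromosome 6, 125546774 to 125686679, plus strand) encodes von Willebrand factor, which tethers platelets and forms the Weibel-Palade body. It was the lowest of the 10 genes, with an FPKM of 0.82 and 0.29 in NC and 0.60 and 0.22 in si*Airn*, from 33 to 122 estimated counts per library. The libraries numbered 1 were higher in both groups by more than the groups differed. The log2 fold change of -0.45 had a 95% interval from -1.81 to 0.90 (adjusted p = 0.614, edgeR's quasi-likelihood test). A change of this size was not detectable at this depth and spread in that fit, which had no term for the replicate number.

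The 4 called changes kept their direction without any single library, but their calls rested on both NC libraries. Their log2 fold changes without NC replicate 1 and without NC replicate 2 were -0.73 and -0.79 for *Icam2* and -0.60 and -0.55 for *Selp*. Those of *Pecam1* were -0.47 and -0.60, and those of *Vcam1* 0.33 and 0.37. Without NC replicate 1, the adjusted p by edgeR's quasi-likelihood test was 0.0645 for *Icam2*, 0.0607 for *Selp*, 0.113 for *Pecam1* and 0.107 for *Vcam1*, and 40 of all genes were called. Without NC replicate 2, these values were 0.0808, 0.0861, 0.113 and 0.119, and 0 genes were called, although 3106 had an unadjusted p under 0.05. By the study's threshold, 2 of the 10 genes passed without NC replicate 1 and 2 without si*Airn* replicate 2. *Cd34* was called without si*Airn* replicate 1 (log2 fold change -0.77, adjusted p = 0.0087, edgeR's quasi-likelihood test), whereas its log2 fold change was -0.33 without NC replicate 1 and -0.27 without si*Airn* replicate 2, with adjusted p = 0.416 and 0.309 by the same test. The fold changes of *Icam1*, *Mcam*, *Sele* and *Vwf* turned sign when a library was left out.

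**Figure D4:**
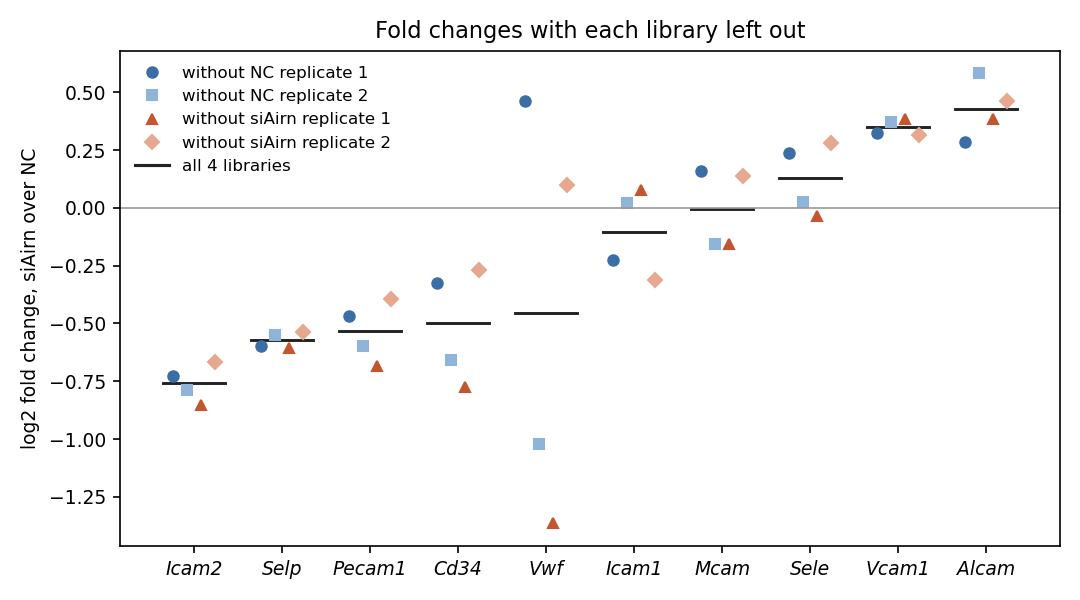
Log2 fold change of si*Airn* over NC for each gene with all 4 libraries (bar) and with each library left out (points). Icam2, Selp, Pecam1, Cd34, Vcam1 and Alcam keep their side of 0, while Vwf runs from -1.36 to 0.46.

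Of 25 other endothelial adhesion and transmigration molecules tested, 10 fell and 2 rose, against 8.56% of all genes called lower and 8.27% higher, with a median log2 fold change of -0.17 against 0.00 over all genes. Without NC replicate 1 the calls in this list dropped to 1 and without NC replicate 2 to 0. The largest decreases were those of *Clec4g*, a C-type lectin of LSECs (FPKM 37.96 and 36.61 in NC, 17.8 and 12.9 in si*Airn*, log2 fold change -1.33), *Jam2*, a junctional adhesion molecule (-1.23), and *Bcam*, a laminin receptor (-0.99). *Cdh5*, the cadherin of endothelial junctions, was the most abundant of the list, and its FPKM of 671 and 591 in NC stood against 473 and 397 in si*Airn*, with a log2 fold change of -0.58. *Lyve1*, *Stab1*, *Esam*, *Ceacam1*, *Cd47* and *Cxcl16*, a membrane-bound chemokine, also fell, by log2 fold changes from -0.84 (*Lyve1*) to -0.25 (*Cd47*). The 2 that rose were *Cd44*, the hyaluronan receptor (30.1 and 32.3 in NC, 46.9 and 59.6 in si*Airn*, log2 fold change 0.73), and *Nectin3* (0.35). The sialomucin *Emcn* (-0.29), the junctional genes *F11r* (-0.17) and *Jam3* (-0.17), and *Cd99* (-0.70), *Cd99l2* (-0.10), *Nectin2* (-0.12), *Pvr* (0.21), *Podxl* (0.14), *Cd200* (0.17), *Bst1* (-0.12), *Cx3cl1* (0.31), *Aoc3* (0.68) and *L1cam* (0.78) did not pass the adjusted threshold.

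The integrins that bind these molecules are mostly leukocyte genes, and their RNA here comes from whichever cells the preparation held. Of 13 counter-receptor genes tested, 2 rose and 1 fell, against 8.27% of all genes called higher and 8.56% lower, with a median log2 fold change of -0.14. *Itgb2*, the common β chain of LFA-1 and Mac-1, fell (FPKM 4.73 and 4.92 in NC, 3.84 and 2.89 in si*Airn*, log2 fold change -0.56), whereas *Itga4*, the α chain of VLA-4, rose (3.28 and 3.67 in NC, 5.07 and 6.57 in si*Airn*, 0.70). *Itgav*, an integrin α chain that many cell types share, rose as well (0.60). Of 7 genes for the glycosylation of selectin ligands, *St3gal4*, a sialyltransferase, fell (-0.45) and the other 6 were not called, against 16.8% of all genes. The *St3gal4* call was lost with limma, with either offset and without either NC library. The counter-receptors had 1 call with the offset for GC content and length and 0 without either NC library.

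Weibel-Palade bodies hold P-selectin and von Willebrand factor. Of 27 genes for their cargo and exocytosis, 4 fell and 0 rose in edgeR's test at the adjusted threshold, against 8.56% of all genes called lower and 16.8% called in either direction, with a median log2 fold change of -0.13. The cargo gene *Igfbp7* was the most abundant of those called (FPKM 1351 and 1543 in NC, 901 and 951 in si*Airn*, log2 fold change -0.69), and the others were the SNARE genes *Stx4a* (-0.57), *Vamp8* (-0.31) and *Vamp3* (-0.26). The remaining 23 genes of the list were not called. The 4 calls became 2 with either offset, 1 without NC replicate 1 and 0 without NC replicate 2.

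Cytokine signalling through NF-κB is the known inducer of *Icam1*, *Vcam1* and *Sele*. Of 32 genes of cytokine receptors and the NF-κB pathway, 4 rose and 1 fell, close to the 16.8% called over all genes tested, with a median of -0.01, and 1 was called with either offset. *Il1rap*, a subunit of the interleukin-1 receptor (0.53), *Rel* (0.46), the kinase gene *Chuk* (0.45) and the inhibitor *Tnfaip3* (0.33) rose, and the inhibitor *Nfkbib* fell (-0.38). Among 16 other endothelial NF-κB target genes, 3 rose and 1 fell, against 16.8% of all genes called, with a median of 0.42. The 4 calls in this list became 1 with the offset for transcript length, 9 without si*Airn* replicate 1 and 0 without either NC library, while the NF-κB pathway list had 3 calls without si*Airn* replicate 2 and 0 without either NC library. *Ptgs2* (0.79), *Csf1* (0.54) and *Nfkbiz* (0.44) rose, while the chemokine gene *Ccl2*, at an FPKM of 1065 and 1124 in NC and 851 and 884 in si*Airn*, fell (-0.38).

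Regulators linked to flow and endothelial quiescence included 6 genes that fell and 2 that rose of 22 tested, against 8.56% of all genes called lower and 8.27% higher, with a median log2 fold change of -0.19. The 8 calls became 13 without si*Airn* replicate 1, 3 without si*Airn* replicate 2, 5 with limma on filtered FPKM and 0 without either NC library. *Klf4* (-0.84), *Sox18* (-0.83), *Nos3*, the endothelial nitric oxide synthase (-0.55), *Gata4* (-0.54), *Erg* (-0.44) and *Lmo2* (-0.44) fell, and *Thbd*, thrombomodulin (0.37), and *Ets1* (0.34) rose. *Klf2*, a flow-responsive transcription factor of endothelium, was not called, with an FPKM of 8.52 and 7.62 in NC against 7.39 and 7.10 in si*Airn* (log2 fold change -0.19, adjusted p = 0.284, edgeR's quasi-likelihood test). Of 22 genes for the cytoskeleton and tetraspanins of docking structures, 3 rose and 3 fell, against 16.8% of all genes called, with a median log2 fold change of 0.00, and 1 of the 22 was called with the offset for transcript length alone. *Trio* (0.54) rose, as did *Vcl* (0.43) and *Flna* (0.40), which encode the actin-binding proteins vinculin and filamin A, and *Ptk2b* (-0.80), *Rhog* (-0.27) and the tetraspanin *Cd151* (-0.22) fell. Among 11 sheddases and inhibitors, *Adam10* (-0.50), *Adam15* (-0.54) and *Mmp14* (-0.48) fell, and *Mmp2* (0.56) and *Adam9* (0.45) rose, 5 of 11 against 16.8% of all genes called. Without either NC library no gene of the docking or sheddase lists was called by edgeR's adjusted threshold, and without si*Airn* replicate 2 the docking list had 3 calls.

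Markers of the endothelium itself were lower in si*Airn* together with *Icam2*, *Selp* and *Pecam1*. The lists are not separate, since *Clec4g*, *Lyve1* and *Stab1* count both as LSEC markers and among the other adhesion molecules above. *Cdh5*, *Esam* and *Emcn* count both as pan-endothelial markers and among those adhesion molecules. *Erg* and *Sox18* are pan-endothelial markers and also belong to the list of flow and quiescence above. Of 13 LSEC markers, 12 fell and 0 rose in edgeR's test, against 8.56% of all genes called lower, with a median log2 fold change of -0.78, and their summed FPKM was 1269 and 1313 in NC and 862 and 784 in si*Airn*. Of 14 pan-endothelial markers that are not among the 10 genes, 9 fell and 0 rose in edgeR's test, against the same 8.56%, with a median of -0.44, and their sums were 4165 and 3924 in NC and 3075 and 2643 in si*Airn*. The log2 fold changes of *Icam2*, *Selp* and *Pecam1* lie between these medians, as do those of *Cd34* (-0.50) and *Vwf* (-0.45), which were not called. Those of *Icam1* (-0.10), *Mcam* (-0.0025), *Sele* (0.13), *Vcam1* (0.35) and *Alcam* (0.43) lie above both. In each of these lists 1 gene was called without NC replicate 1 and 0 without NC replicate 2. Of 15 markers of continuous and large vessel endothelium, *Ly6a* (-1.51) and *Plvap* (-1.08) fell and *Rspo3* (0.47) and *Efnb2* (0.46) rose, against 16.8% of all genes called in either direction. These 4 calls became 2 with the offset for transcript length and without NC replicate 1, and 0 without NC replicate 2.

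Markers of other cells also moved. Of 14 macrophage markers, 10 fell and 0 rose in edgeR's test, against 8.56% of all genes called lower, but 3 were called with either offset, 6 without si*Airn* replicate 2 and 0 without either NC library. All 14 macrophage markers were lower, with a median log2 fold change of -0.80, and their summed FPKM was 285 and 340 in NC and 225 and 181 in si*Airn*. Hepatocyte markers summed to 321 and 421 in NC and 463 and 606 in si*Airn*, with *Apoa1* (1.19) the 1 gene of 10 called, near the 8.27% of all genes called higher. That list had 3 calls without si*Airn* replicate 1 and 0 when any other library was left out or with limma. Of the 3 neutrophil and monocyte markers tested, none was called, against 16.8% of all genes, and *Camp* and *Mpo* had 0 counts in every library. The 3 lymphocyte markers and 9 cholangiocyte and mesothelium markers tested also gave no calls in edgeR's quasi-likelihood test. All 3 lymphocyte markers were higher, with a median log2 fold change of 0.98 and summed FPKM of 3.34 and 2.95 in NC and 5.11 and 5.14 in si*Airn*. Of these, 2 were called with the likelihood-ratio test and 1 with limma on filtered FPKM. The cholangiocyte and mesothelium list had 1 call with either offset. The part of these differences in the changes of *Icam2*, *Selp*, *Pecam1* and *Vcam1* was not tested.

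**Figure D5:**
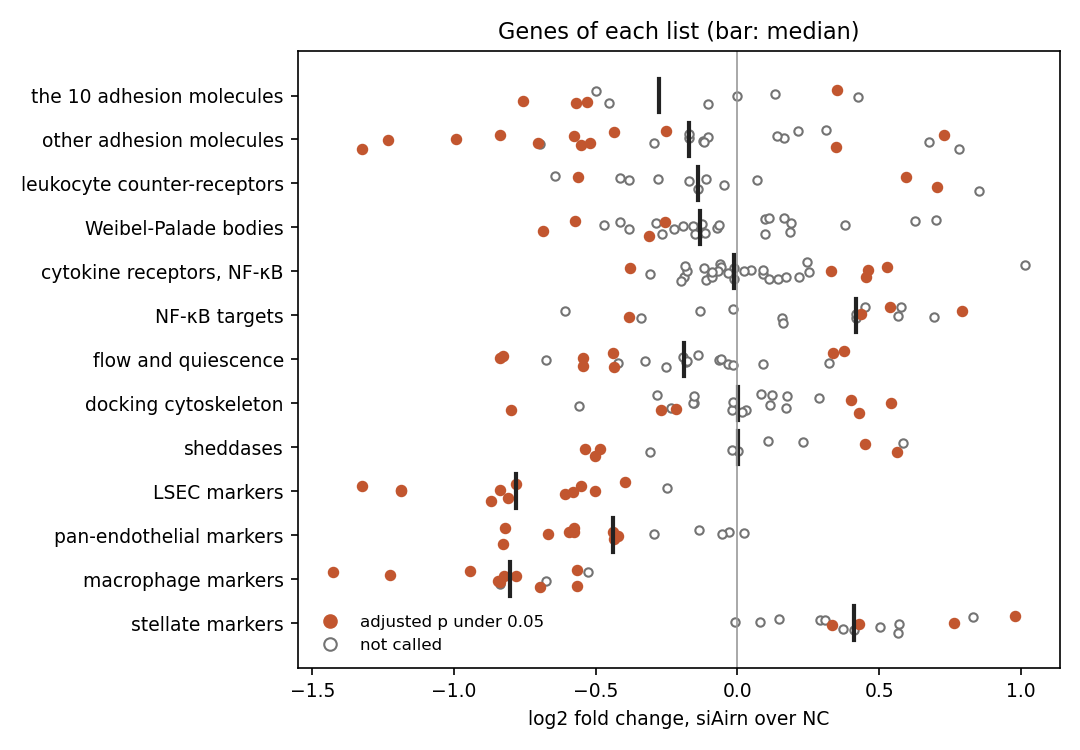
Log2 fold change of si*Airn* over NC for each tested gene of 13 lists (filled where the adjusted p was under 0.05 in edgeR's quasi-likelihood test), with a bar at each list's median. The 10 adhesion molecules have a median of -0.28, between those of the LSEC markers (-0.78) and the NF-κB targets (0.42).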

How the data were processed

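RNA of 4 LSEC libraries was sequenced by the submitters on a BGISEQ-500 as single-end reads of 50 bases. The authors deposited estimated counts and a normalized value per gene and library, which was read as FPKM because the transcript length it implies varied by a median of 1.40% between libraries over 10226 genes. The submitters' processing notes name BWA, Bowtie2 and RSEM, without versions or roles, and the human build hg19, although the samples are mouse, so the build and the annotation of the deposited estimated counts are not settled. Locations come from GENCODE M21 (GRCm38) and the promoters from RefSeq.

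The estimated counts were rounded and tested in R 4.3.3 with edgeR 4.0.16 (TMM, filterByExpr, quasi-likelihood test, no covariate), with Benjamini-Hochberg adjustment over 13628 genes. A floor of 3 counts was 0.166 to 0.175 CPM. "Called", "rose" and "fell" mean an adjusted p under 0.05. The test that gave the RNA-seq p-values of the study's threshold is not named. The authors' group means were not used.

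The 10 genes and the lists were chosen with earlier results of these data known. The genes to be named were the 10, *Airn* and all tested members of the other adhesion list. From each other list they were up to 3 called increases and 3 called decreases with a mean of at least 1 CPM, plus its most abundant gene. This rule was not followed throughout. The most abundant genes of some lists are not named, and some genes that were not called, such as *Klf2*, are. Further called genes were added after their values were seen, and not all genes named are given values. The lists are the 10 genes by role, other adhesion molecules, counter-receptors, selectin ligand glycosylation, Weibel-Palade bodies, cytokine receptors and NF-κB, NF-κB targets, flow and quiescence, docking cytoskeleton, sheddases, and 10 cell types.

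Alternatives were DESeq2 1.42.0, RLE and upper-quartile factors, no filter, at least 10 counts in every library, the likelihood-ratio test, limma 3.58.1 on log2(FPKM + 1), with or without a minimum mean FPKM of 1, or on log2(FPKM + 0.1), a replicate block, offsets for length or for GC content and length, and leaving out each library, where the lone library is assumed to vary like the other group. The scripts were tested on simulated data.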

Additional observations from a re-analysis of the deposited data

How the results depend on the processing

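Of the 10 genes, *Icam2*, *Selp* and *Pecam1* stayed lower and *Vcam1* higher under all 12 other settings and without each library. All 4 calls were lost with limma on log2(FPKM + 1) without a filter on FPKM (adjusted p = 0.0813 for *Icam2*, *Selp* and *Vcam1* and 0.116 for *Pecam1*), where 0 of the 10 and 0 of all genes were called although 4418 had an unadjusted p under 0.05. With the offset for GC content and transcript length *Vcam1* was not called, and 1031 of all genes were. The offset for transcript length alone gave 1301. The causes were not tested. The log2 fold change of *Mcam* turned positive with RLE factors (0.0019), with at least 10 counts in every library (0.0003), with limma on log2(FPKM + 1) with or without a filter (0.0351) or on log2(FPKM + 0.1) (0.0359) and with the offset for GC content and length (0.0868), where that of *Icam1* was 0.0256.

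When each library was left out in turn, the number of the 10 genes called ran from 0 to 5 and the number past the study's threshold from 2 to 5, and all genes called ran from 0 (without NC replicate 2) to 2410. Log2 fold changes ran from -0.3131 to 0.0775 for *Icam1*, from -0.16 to 0.16 for *Mcam*, from -0.0367 to 0.28 for *Sele*, and from -1.36 to 0.46 for *Vwf*.

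The replicate numbers are shared by the groups, but no label says that they mark a shared animal or day. Deviations of same-numbered libraries correlated across genes with r = 0.27, and with r = 0.455 over those averaging 10 CPM or more (genes are not independent replicates). With a replicate block, 4841 genes were called, and *Cd34* (log2 fold change -0.51, adjusted p = 0.0024, edgeR's quasi-likelihood test) and *Alcam* (0.43, adjusted p = 0.0279, same test) were called besides the other 4. For *Vwf* the block gave a log2 fold change of -0.46 (adjusted p = 0.114, same test), with an SE of 0.21 against 0.57 without it. With the block the Weibel-Palade list had 12 calls, the cytokine receptor and NF-κB pathway list 15 and the NF-κB target list 12. With the likelihood-ratio test and no block these lists had 6, 7 and 7 calls.

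DESeq2 left the adjusted p of 6636 of 18014 genes missing. At 33 to 122 counts, *Vwf* had the widest interval of the 10 genes. Over 19 lists, 205 of 304 recomputed counts of calls stayed within 1.5 times the reported count and 99 did not.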
